A study of Sus scrofa with 6 samples.

Results

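Genes for receptors of immunoglobulin G (IgG) and their shared signalling subunit were followed in 2 populations of porcine blood monocytes. They were found by symbol in the array's annotation, as every probe set whose gene symbol starts with FCGR or is FCER1G. This gave 15 probe sets of 4 genes, out of 47722 probe sets and 13755 gene symbols on the array. FCER1G had 3 probe sets, FCGRT 5, FCGR1A 2 and FCGR2B 5. FCGR3A, the gene of CD16, was not analysed here.

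Mononuclear cells came from the blood of 3 crossbred Large White Landrace piglets, 8 weeks of age, and had been frozen and thawed before staining. One sorted population was low for CD14 and high for CD163 (CD163high), and the other was high for CD14 and low for CD163 (CD163low). Each population of each pig gave 1 array, so that there were 6 arrays in 2 groups of 3, with no treatment and no genetic change in either group. The comparison asked which transcripts differ between the populations, and for Fc receptors it meets a question from human blood, where CD16 separates monocyte subsets. Signals are log2 values after the authors' normalization, differences are CD163high minus CD163low, and errors are SD over n = 3 arrays for means and SE of the limma fit for differences.

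Fc gamma receptors bind IgG on opsonised particles and immune complexes. The roles given here are known from human and mouse. The high-affinity receptor FcγRI, encoded by FCGR1A, sits in the membrane with a dimer of the gamma chain encoded by FCER1G, whose ITAM tyrosines recruit the kinase SYK and start phagocytosis. FCGR2B encodes the inhibitory receptor FcγRIIB, which carries an ITIM and recruits the phosphatase SHIP1, the product of INPP5D. FCGRT encodes the neonatal receptor FcRn, a relative of MHC class I that pairs with beta-2-microglobulin, binds IgG in acidic endosomes and returns it to the cell surface. Despite its symbol it belongs to another protein family than the other IgG receptors. In the RefSeq annotation of Sscrofa11.1, FCGR2B and FCGR3A are next to each other with 0 protein-coding genes between them, and FCER1G lies on the same chromosome with 9 protein-coding genes between it and FCGR3A. The probe sequences were not used here, so whether an FCGR2B probe set also detects transcripts of a related receptor was not tested.

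The arrays differed in ways that the sort does not describe. The 69 background control probe sets had a mean log2 signal that ran from 2.60 in CD163low of pig 2 to 3.67 in CD163high of pig 3, and CD163low of pig 1 had the second highest at 3.29. EIF1AY, a Y-linked gene, had signals of 9.16 in CD163high and 5.09 in CD163low of pig 1, 9.17 and 9.12 in pig 2, and 4.57 and 6.88 in pig 3, so the arrays labelled as pig 1, and those labelled as pig 3, are not alike in this gene. The lowest EIF1AY signals, in CD163low of pig 1 and CD163high of pig 3, were on the arrays with the highest background and the fewest probe sets above every background control (2327 and 676, against 3649 to 6700 on the others). Whether the low signals come with array quality or with the pairing was not tested. Differences in pig 2 are therefore given beside each main result. The arrays of pig 2 also had the highest summed B cell, NK cell, T cell and erythroid markers, described last. The brightest CD163 probe set followed the gate in all pigs (log2 difference 2.03 ± 0.43), as did CD14 (-1.07 ± 0.47). A dimmer CD163 probe set had 1.06 ± 0.44, with 2.23, 1.00 and -0.056 in pigs 1, 2 and 3, and so did not follow it in pig 3. All 7 measured monocyte markers lay above the mean of the background controls on every array, with summed linear signals of 2581 to 4242 in CD163high and 3254 to 3397 in CD163low.

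None of the 15 probe sets passed the test between the populations. In limma 0 of 15 had an adjusted p under 0.05 and 0 had an unadjusted p under 0.05, where over the whole array 0% passed after adjustment and 2.59% had an unadjusted p under 0.05. The groups overlapped for all 15, whereas they did not overlap for 6.29% of all probe sets. The members fell into 2 patterns. FCER1G and FCGRT had differences close to 0, with signs that varied between pigs. The brightest probe sets of FCGR1A and FCGR2B had positive differences that were carried mostly by 1 array, CD163high of pig 1. Of the 15, 2 had higher values in all 3 pigs, the first of FCGR1A and the third of FCGR2B, against 9.99% of all probe sets. That FCGR1A probe set lay near background in pig 3, so its direction there was not measured. Of the 15, 0 were lower in all 3 pigs, against 12.4%.

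**Figure D1:**
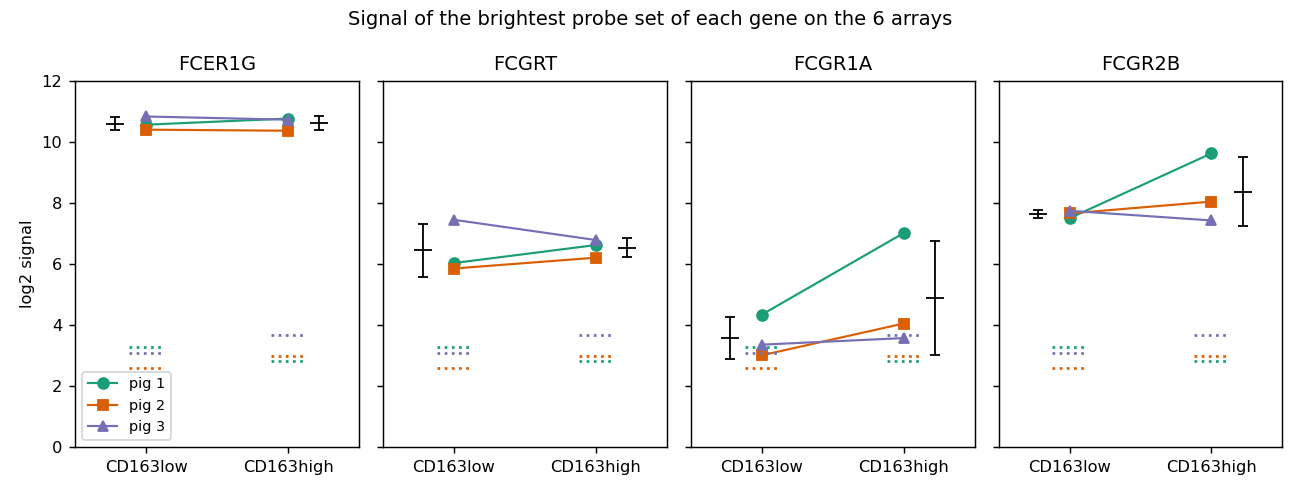
Log2 signal (vertical axis) of the brightest probe set of FCER1G, FCGRT, FCGR1A and FCGR2B in CD163low and CD163high monocytes. Points joined by a line are the arrays that the labels give to 1 pig, black bars are mean ± SD (n = 3) and dotted marks are the average background control of each array; FCGR1A and FCGR2B stand highest in CD163high of pig 1, at 7.01 and 9.63.

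FCER1G, the gamma chain through which FcγRI signals, was at nearly the same level in both populations. Its brightest probe set had log2 signals of 10.77, 10.37 and 10.73 in CD163high and 10.57, 10.40 and 10.84 in CD163low of pigs 1, 2 and 3. The 2 groups covered nearly the same range. Both arrays of pig 2 were lowest, and those of pigs 1 and 3 alternated above them. The means were 10.62 ± 0.22 and 10.60 ± 0.22 (SD, n = 3), a difference of 0.02 ± 0.20 with a 95% interval of -0.47 to 0.52 (limma adjusted p = 1). The difference in pig 2 was -0.035. Fold changes over 1.43 in either direction lie outside this interval, while smaller ones cannot be told from 0 with 3 arrays per group.

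The other FCER1G probe sets agreed on the absence of a called difference, though not on the order of the arrays. The second had a difference of -0.093 ± 0.33, with 0.87, -0.31 and -0.84 in pigs 1, 2 and 3. The third had -0.14 ± 0.25, with -0.041, 0.15 and -0.53. In pig 3 all 3 probe sets were lower in CD163high, and in pig 1 they had both signs. Over the 6 arrays the second and the third correlated with the brightest at r = 0.39 and 0.79 (Pearson, 6 arrays that share 3 pigs). The total range of the brightest probe set over the arrays was 0.47, and 81.7% of all probe sets had a larger one.

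FCGRT, the gene of FcRn, had no called difference in any of its 5 probe sets either. The brightest had signals of 6.62, 6.21 and 6.79 in CD163high and 6.03, 5.85 and 7.45 in CD163low of pigs 1, 2 and 3. The highest and the lowest array were both CD163low, so the CD163high arrays lay inside the range of the other group. The difference was 0.094 ± 0.45 with a 95% interval of -0.998 to 1.19 (limma adjusted p = 1), and it was 0.36 in pig 2. Differences of the 5 probe sets ran from -0.12 to 0.24, and none had the same sign in all 3 pigs.

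The FCGRT probe sets did not rank the arrays alike. In order of brightness, the third followed the first over the 6 arrays (r = 0.88), the fourth less so (r = 0.32), and the second and the fifth ran the other way (r = -0.33 and -0.62). CD163low of pig 3 was highest for the first and the third, and CD163high of pig 3 for the fourth, at 6.27 against 4.60 to 5.58 on the other arrays. A summary of FCGRT therefore depends on the probe set taken. All 5 lay above the mean of the background controls on every array. B2M, the partner chain of FcRn, had 11.79, 11.49 and 11.17 in CD163high and 11.19, 11.55 and 11.42 in CD163low, a difference of 0.098 ± 0.22.

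**Figure D2:**
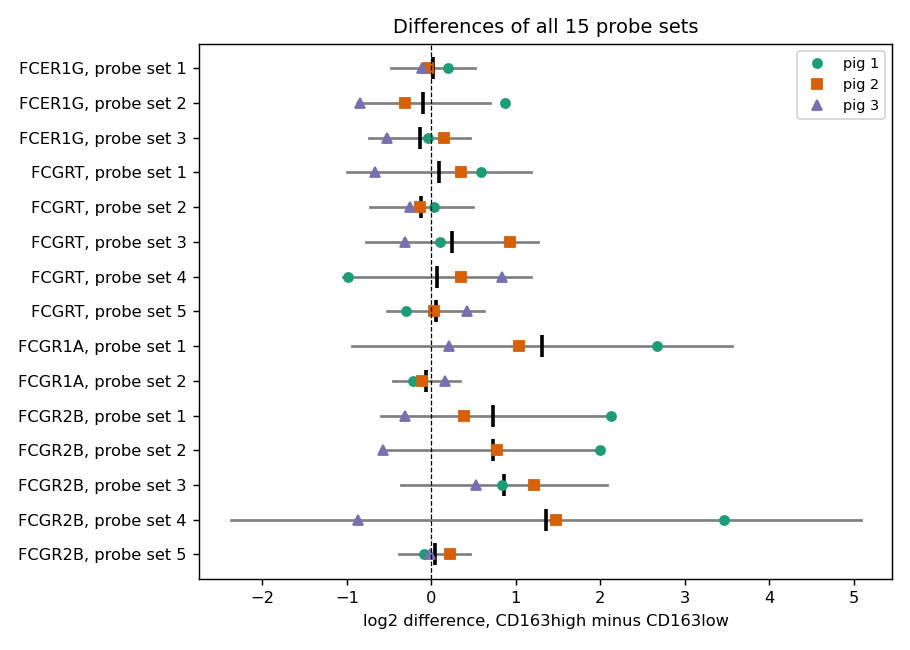
Log2 difference, CD163high minus CD163low (horizontal axis), of all 15 probe sets, ordered within each gene from the brightest to the dimmest. Coloured points are the 3 pigs, black ticks the limma estimate and grey lines its 95% interval; every interval includes 0, and the points of pig 1 lie at 2.68 for the first FCGR1A probe set and at 2.13 for the first FCGR2B probe set.

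FCGR1A, the gene of the high-affinity receptor, had the largest positive difference among the 4 brightest probe sets. Its signals were 7.01, 4.05 and 3.57 in CD163high and 4.34, 3.00 and 3.35 in CD163low of pigs 1, 2 and 3. CD163high had the higher value in each pig, but in pig 3 this value lay under its background mean. CD163low of pig 1 lay above CD163high of pigs 2 and 3, so that the groups overlapped. The mean was 4.88 ± 1.87 in CD163high and 3.56 ± 0.69 in CD163low (SD, n = 3).

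The FCGR1A difference was 1.31 ± 0.93 with a 95% interval of -0.94 to 3.56 (limma adjusted p = 1). It was 1.04 in pig 2 and 0.22 in pig 3. Without CD163high of pig 1 it was 0.24 ± 0.45, without pig 1 altogether 0.63 ± 0.30, and without CD163high of pig 3 it was 1.97 ± 0.93. With array weights it was 2.33 ± 0.77 (limma adjusted p = 0.213), and on the 4 arrays with the least background 2.35 ± 1.04 (limma adjusted p = 1). The range over the 6 arrays was 4.01, and 0.759% of all probe sets had a larger one. CD163high of pig 3 was dimmer than its own background controls on average (3.67), and CD163low of pig 3 was above its own (3.07), so neither the direction nor the size of the difference in pig 3 was measured and no fold is given. The second FCGR1A probe set stayed between 1.67 and 1.96, under the background mean on all 6 arrays, so it gives no measured level of the gene.

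FCGR2B, the inhibitory receptor gene, lay above the mean of the background controls on every array for 3 of its 5 probe sets. The brightest probe set had 9.63, 8.05 and 7.43 in CD163high and 7.50, 7.66 and 7.74 in CD163low of pigs 1, 2 and 3. In CD163high of pig 3 the highest single background control, at 8.38, exceeded this probe set. The CD163low arrays lay within a narrow band (7.63 ± 0.12, SD, n = 3), and the CD163high arrays spread to both sides of it (8.37 ± 1.13). The difference was 0.73 ± 0.55, or 1.66-fold, with a 95% interval of -0.59 to 2.06 (limma adjusted p = 1), and it was 0.39 in pig 2. Without CD163high of pig 1 the difference was 0.10 ± 0.26, and without pig 1 it was 0.036 ± 0.31. With array weights it was 1.19 ± 0.44 (limma adjusted p = 0.237).

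The second FCGR2B probe set repeated the first. It had 7.27, 6.24 and 5.15 in CD163high and 5.26, 5.46 and 5.72 in CD163low, correlated with the first at r = 0.97 over the 6 arrays, and had a difference of 0.74 ± 0.52. Both were highest in CD163high of pig 1, then in CD163high of pig 2, and lowest in CD163high of pig 3. Without CD163high of pig 3 the second had a difference of 1.27 ± 0.36 (limma adjusted p = 0.926).

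The third FCGR2B probe set gave another order of arrays and was the only one of the 5 with the same sign in all pigs. It had 6.57, 6.89 and 5.25 in CD163high and 5.74, 5.67 and 4.72 in CD163low, so that pig 2 and not pig 1 had the highest CD163high array. Its difference was 0.86 ± 0.50, with 0.83, 1.22 and 0.53 in the 3 pigs. With the pig as a block the difference was 0.86 ± 0.22, with an unadjusted p of 0.0125 (limma adjusted p = 1). Leaving out CD163high of pig 1 gave 0.69 ± 0.59, so this probe set rested less on that array than the first did.

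The last 2 FCGR2B probe sets were partly or wholly at background. The fourth had 5.76, 6.90 and 1.55 in CD163high and 2.29, 5.42 and 2.42 in CD163low. It lay under the background mean on 3 arrays, both of pig 3 and CD163low of pig 1, and well above it on both arrays of pig 2. Its range of 5.34 was exceeded by 0.103% of all probe sets, and its difference of 1.36 ± 1.54 has no interpretable size. The fifth stayed between 2.71 and 3.06, at the level of the background controls.

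**Figure D3:**
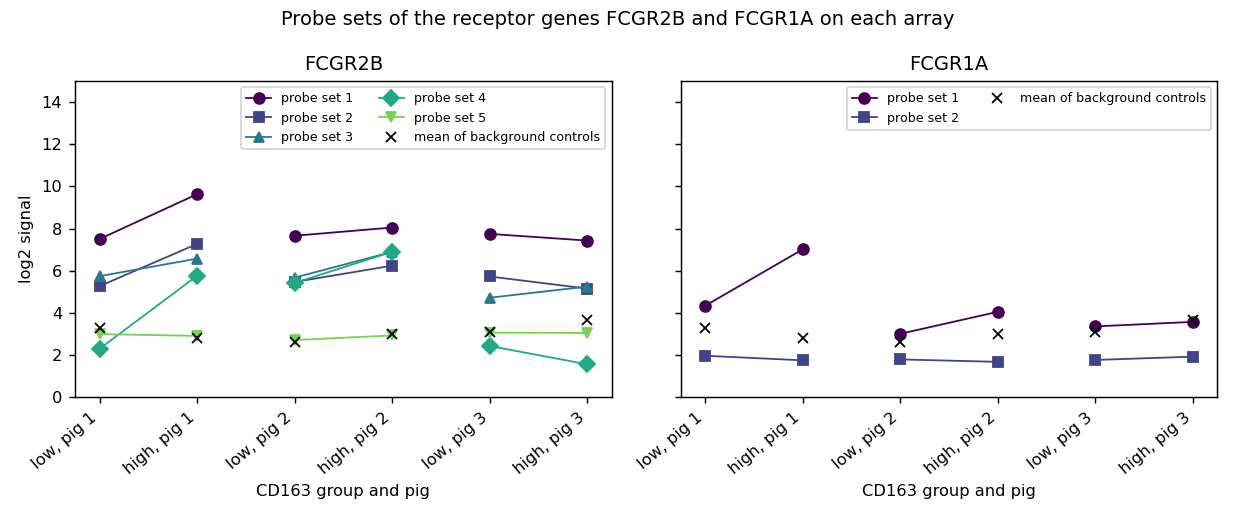
Log2 signal (vertical axis) of the 5 FCGR2B and the 2 FCGR1A probe sets on each array, with lines joining the arrays of 1 pig and crosses for its average background control. The first FCGR2B and the first FCGR1A probe set peak in CD163high of pig 1, and the fourth FCGR2B probe set falls under the crosses on 3 arrays.

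The brightest probe sets of the 4 genes fell into a pair of patterns over the arrays. The brightest probe sets of FCGR1A and FCGR2B correlated at r = 0.92 and those of FCER1G and FCGRT at r = 0.85, while r between the pairs ran from 0.027 to 0.32 (Pearson, 6 arrays from 3 pigs). Without CD163high of pig 1 the first of these values was 0.075 and the second 0.89 on the other 5 arrays, so the likeness of FCGR1A and FCGR2B rested on that array. It was the highest of the 6 for 4 of the 15 member probe sets and for 13.5% of all probe sets. The likeness of FCER1G and FCGRT was computed for their brightest probe sets only. Other FCGRT probe sets correlated with the brightest at -0.62 to 0.88, and the second FCER1G probe set with its brightest at 0.39.

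Among 1-symbol probe sets with a mean signal above 3.25, those most like each member were named by Pearson's r over the 6 arrays. For FCER1G they were TRMT112 (r = 0.996), SORCS3 (0.993) and CLDN8 (0.986). For FCGRT they were SH3BP5 (0.990), STEAP3 (0.981) and SAP30BP (0.974). For FCGR1A they were CREB5 (0.976), SELH (0.975) and PAF1 (0.973). For FCGR2B they were SELT (0.995), the cytokine gene IL15 (0.995) and RCSD1 (0.992). IL15 had 5.47, 3.50 and 2.51 in CD163high and 2.75, 3.02 and 2.84 in CD163low of pigs 1, 2 and 3, and was thus far highest in CD163high of pig 1. SORCS3, CLDN8 and IL15 each lay under the background mean on 3 of the 6 arrays and STEAP3 on 1, so part of their likeness is in values without a measured level. With about 15570 candidates and 6 arrays such values are common: 19 to 43 probe sets passed r = 0.95 for each member.

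Around the receptors, genes were read in 9 lists, each gene by its brightest probe set. Besides the Fc pathway, the lists hold human classical and CD16-positive monocyte genes. Of the 166 distinct genes measured, limma called 0 (adjusted p = 1 for each), and 3 higher and 12 lower ones had an unadjusted p under 0.05. Together these were 9.04% of the 166, beside 3.27% of all genes read the same way. Over all 47722 probe sets 1235 had such a p, where 2386 would be expected with no difference in any. Single unadjusted p-values are therefore weak evidence of a difference. The groups did not overlap for 21 of the 166, of which 4 were higher and 17 lower in CD163high. As a share this was 12.7%, beside 6.18% of all genes read by their brightest probe set. The classical monocyte list alone gave 7 of the 21, and 5 of the 12 lower genes with an unadjusted p under 0.05. The CD16-positive list gave 1 of the 21. The median log2 difference over all 13755 genes was -0.013, with 7196 lower and 6559 higher in the mean.

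The list of ITAM-bearing adaptors, their partner receptors and the adaptor gene HCST had a median difference of -0.10 over 16 measured of 20. Of these, 13 were lower and 3 higher in the mean. TYROBP, the DAP12 adaptor and the counterpart of FCER1G, had 9.84, 9.62 and 9.75 in CD163high and 9.89, 9.02 and 10.42 in CD163low. Its groups overlapped fully, and the difference was -0.040 ± 0.36. TREM1, an amplifying receptor that signals through DAP12, had 7.81, 6.62 and 4.11 in CD163high and 8.51, 8.55 and 10.51 in CD163low. Every CD163high array was lower than every CD163low array, with a difference of -3.01 ± 1.03 (unadjusted p = 0.0253) that was widest in pig 3 (-6.41). Without CD163high of pig 3 it was -1.97 ± 0.74. CLEC4E, the receptor Mincle that pairs with the FCER1G chain, had a difference of -1.38 ± 0.64. HCST, whose product is an adaptor without an ITAM, had -1.24 ± 0.51. CD300LB went the other way at 0.57 ± 0.21.

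A list of other Fc-binding receptors and their relatives had a median of -0.33 over 9 measured of 18. Some members, such as FCRL6, are relatives that are not established as binding the Fc part of antibodies. FCER1A, the IgE-binding chain that also uses the FCER1G dimer, had 4.76, 4.51 and 4.17 in CD163high and 5.55, 4.93 and 5.13 in CD163low. The groups did not overlap, with a difference of -0.72 ± 0.25 (unadjusted p = 0.0250). FCRL4 had -0.61 ± 0.26, FCRL6 -0.44 ± 0.22 and FCAMR -0.45 ± 0.34, and each of these 3 lay under the background mean on at least 1 array.

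Kinases and relay proteins downstream of the ITAM showed no common direction. The 34 measured of 37 had a median of -0.019, with 16 higher and 18 lower. SYK had 7.33, 7.91 and 5.99 in CD163high and 6.47, 8.36 and 7.43 in CD163low, a difference of -0.34 ± 0.65 with both signs among the pigs. For SYK, 1 of its 4 probe sets had the opposite sign. PRKCA, a protein kinase C, had a difference of -1.03 ± 0.34 (unadjusted p = 0.0223) with the same sign in all of its 7 probe sets. The exchange factor gene VAV2 had -0.54 ± 0.17, with 1 array under background. The phospholipase gene PLCG2 had -0.38 ± 0.16, and the groups did not overlap for these 3 genes. BTK, a Tec family kinase, had 0.76 ± 0.40.

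Inhibitory phosphatases, adaptors and receptors had a median of -0.21 over 17 measured of 21, and 15 of the 17 were lower in the mean. INPP5D, the phosphatase that FcγRIIB recruits, had 6.98, 7.65 and 7.98 in CD163high and 7.98, 7.94 and 8.14 in CD163low. It was lowest in CD163high of pig 1, the array on which FCGR2B was highest, and the difference was -0.48 ± 0.28. The adaptor gene DOK1 had -1.01 ± 0.38 (unadjusted p = 0.0369) and CSK, the kinase that restrains Src kinases, had -1.17 ± 0.57, both without overlap of the groups. The CSK differences were -0.30, -0.23 and -2.98 in pigs 1, 2 and 3, and without CD163low of pig 3 it was -0.54 ± 0.33. PAG1, which anchors CSK at the membrane, had -0.99 ± 0.53, and 2 of its 4 probe sets had the opposite sign. PTPN6, the phosphatase SHP-1, had -0.11 ± 0.26.

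The actin machinery of the phagocytic cup had a median of 0.14 over 34 measured of 37, with 23 higher and 11 lower. Its medians were 0.37, 0.32 and -0.30 in pigs 1, 2 and 3, so pig 3 went the other way. ARPC1A, a subunit of the Arp2/3 complex, had a difference of 0.63 ± 0.24 (unadjusted p = 0.0364) and the profilin gene PFN1 0.52 ± 0.23, both without overlap. RHOA had 0.57 ± 0.32 (1 of its 2 probe sets had the opposite sign) and the WAVE complex gene WASF2 -0.52 ± 0.27. Genes of the FcRn recycling route had a median of 0.21 over 9 measured of 12, with 0.71, -0.039 and -0.25 in the 3 pigs. Among them MYO5A had 0.39 ± 0.26 (3 of its 5 probe sets had the opposite sign) and SNX4 0.67 ± 0.55 (2.40 in pig 1 against 0.0031 and -0.39). EXOC2 had 0.43 ± 0.44 (1 of its 3 probe sets had the opposite sign) and RAB11A 0.91 ± 0.99, the last with 3.62 in pig 1 alone.

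**Figure D4:**
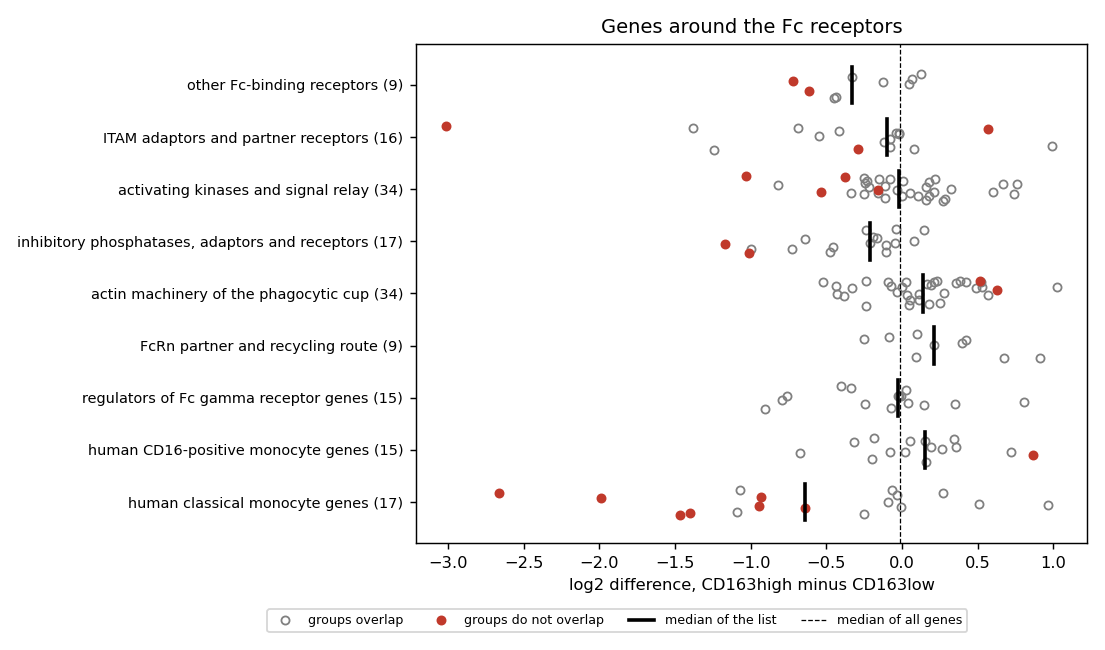
Log2 difference, CD163high minus CD163low (horizontal axis), of the genes in 9 lists around the Fc receptors, with the number measured in brackets. Each point is a gene by its brightest probe set, filled where the 2 groups of 3 arrays do not overlap; black ticks are list medians, from -0.64 in the human classical monocyte genes to 0.21 in the FcRn route, and the dashed line is the median of all genes (-0.013).

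Regulators known to set Fc gamma receptor expression, among them the interferon gamma receptor and its signal path, had a median of -0.025 over 15 measured of 16. Of the interferon gamma receptor chains, IFNGR2 lay under the background mean on all 6 arrays, so its level was not measured. The groups overlapped for all 15 genes. The interleukin-4 receptor gene IL4R had -0.90 ± 0.37, TGFBR1 0.81 ± 0.44, TGFBR2 -0.79 ± 0.61 and STAT3 -0.40 ± 0.34, and these 4 had differing signs between pigs. Of the probe sets, 1 of 3 for TGFBR1 and 2 of 5 for STAT3 had the opposite sign.

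Genes that mark CD16-positive monocytes in human blood had a median of 0.15 over 15 measured of 28, against -0.64 over 17 of 20 for the classical, CD14-high type. Medians of the first list were -0.29, 0.39 and -0.21 in pigs 1, 2 and 3, and those of the second were -1.06, -0.27 and -0.82. The first median was -0.20 with array weights, -0.046 on the 4 arrays with the least background and -0.20 without CD163low of pig 2, so its sign depends on the arrays. The second stayed negative, at -0.34 with probe sets averaged and -0.40 without CD163high of pig 1. CDKN1C, a cell cycle inhibitor gene typical of human CD16-positive monocytes, had 4.87, 4.22 and 5.28 in CD163high and 4.17, 3.49 and 4.12 in CD163low. The groups did not overlap and the difference was 0.87 ± 0.33 (unadjusted p = 0.0394). TCF7L2 had 0.72 ± 0.49, POU2F2 -0.32 ± 0.34 (1 of its 3 probe sets had the opposite sign) and MTSS1 0.36 ± 0.40. CX3CR1, the fractalkine receptor gene, had 7.73 and 7.32 in pig 2 and 3.26 to 4.73 on the other arrays, with a difference of 0.35 and a 95% interval of -2.86 to 3.55. The summed NK cell and T cell markers described last were also highest in pig 2, and their part in this was not tested. In the classical list 7 of the 17 had groups without overlap, all lower in CD163high, among them CXCR2, S100A8, S100A12 and THBS1. Over all genes read by their brightest probe set this share was 6.18%. CD14, an antigen of the sort, is itself a member of the classical list, though its groups overlapped, so that list is not independent of the gate. Both lists were chosen from human data with earlier results of these arrays known.

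Other blood cells also carry Fc receptors, and in a bulk array fewer cells of a type and less RNA per cell cannot be told apart. FCGR2B is the main Fc receptor of B cells. The 5 measured B cell markers had summed linear signals of 472 to 1701 in CD163high and 628 to 1720 in CD163low, highest in both arrays of pig 2, and their sum in CD163high of pig 1, where FCGR2B peaked, was 1029. Most of that sum was BANK1 (log2 9.83 against 8.70 in CD163low of pig 1), while MS4A1 (5.75 against 6.87), CD79A, CD79B and PAX5 were lower there than in CD163low of pig 1, and the list's median difference was -0.55. The 9 NK cell markers summed to 898 to 2698 and 1000 to 3304, and the 6 T cell markers to 165 to 799 and 274 to 714. The 7 neutrophil markers summed to 418 to 1131 in CD163high and 832 to 1961 in CD163low, with LTF under the background mean on all arrays. CSF3R (-1.09) and CXCR2 (-2.66), both also in the classical monocyte list, carried that difference, and the other 5 had differences of -0.097 to 0.10. Of these 5, MPO and OLFM4 also lay under the background mean on 4 arrays each, so little of their level was measured. The 7 platelet markers summed to 172 to 184 and 198 to 260, the 6 dendritic cell markers to 305 to 884 and 304 to 530, and the 4 basophil or mast cell markers to 112 to 634 and 103 to 128, each highest for CD163high in pig 1. KIT made up most of the 634, at log2 9.18 on that array, while FCER1A had a difference of -0.72, HDC -0.13 and GATA2 -0.014. The 3 erythroid markers summed to 1739 and 2060 in the arrays of pig 2 and to at most 43.4 on the others. The part of such cells in the Fc receptor signals was not tested.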

How the data were processed

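The deposited values are intensity values per probe set, 1 column for each of the 6 arrays. Per the submitters' processing notes RMA and limma were used; versions, roles and probe-set definition are not stated there. Coordinates are left out, with the build not given in the sources used here. The RMA method equalises intensities between arrays and compresses differences of dim probe sets. Per the labels, 500 ng of RNA was amplified and 5.5 µg of cDNA labelled per array. The first 186 rows of the deposited table were log2 values and the other 47659 antilogs (log2 a whole multiple of 0.0001 within 1e-06); the log2 of the latter was taken.

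The 123 control probe sets were left out. The test was limma 3.58.1 in R 4.3.3 (lmFit, eBayes, two-sided, without a block). Adjustment was by Benjamini-Hochberg over 47722 probe sets at 0.05. It was tested on simulated data. P-values measure the spread between arrays, which includes that between pigs, and the number of arrays limits precision. Each gene was read from its brightest probe set (mean of all arrays); 26426 probe sets had 1 symbol, 21296 none and 0 several, and 13408 of 13755 symbols were found in current RefSeq or Ensembl tables. Arrays with the same number come from 1 pig per the labels; deviations from group means correlated at -0.196, 0.668 and 0.261 within pigs 1, 2 and 3, and unmatched arrays reached 0.603 (CD163high of pig 3 with CD163low of pig 1).

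Named are the members, their nearest partners, the sort antigens, up to 4 genes per list with the smallest p, and 3 genes most like each member. EIF1AY, IL15's values and the count of 7 classical genes were singled out after values were seen. The members and lists were chosen with earlier results of these data known. Alternatives were the pig as a block (fixed, or random), eBayes with trended and robust variance, weights for the arrays, the brighter 50% of probe sets, quantile normalization, median centring, the background signal as covariate, the mean of a gene's probe sets, and omission of each pig and array. The 4 arrays with the lowest background were added after the data were seen.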

Additional observations from a re-analysis of the deposited data

How the results depend on the processing

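In 18 alternatives run on probe sets limma called 0 probe sets, and no member gene or list gene passed. FCGR1A and FCGR2B stayed positive under all 19 alternatives, from 0.24 to 2.35 and from 0.036 to 1.26. FCER1G, at 0.021, turned to -0.014 with the background signal as a covariate, -0.070 with the mean of its probe sets, -0.14 with array weights, -0.12 with quantile normalization and -0.051 on the 4 low-background arrays, and omitting pigs or arrays gave -0.078 to 0.15. FCGRT, at 0.094, turned to -0.24 on the 4 low-background arrays and -0.70 with weighted arrays, and omitting pigs or arrays gave -0.20 to 0.60. The median of the ITAM list was -0.34 with probe sets averaged and -0.37 with weighted arrays, and -0.32 to -0.060 with pigs or arrays left out; that of the inhibitory list was -0.41 to -0.13. Medians of 5 lists changed sign over the alternatives: the FcRn route (0.21) ran from -0.15 to 0.43, actin (0.14) from -0.025 to 0.40, CD16-positive genes (0.15) from -0.20 to 0.29, regulators (-0.025) from -0.37 to 0.072 and kinases (-0.019) from -0.096 to 0.14. The cause was not tested. With the pig as a replicate block, differences stayed as they were (1.31 ± 0.51 for FCGR1A, 0.73 ± 0.51 for FCGR2B, 0.021 ± 0.18 for FCER1G and 0.094 ± 0.31 for FCGRT) and no call changed. An unadjusted p under 0.05 was met by 1235 probe sets in the reported fit. This number was 1917 and 1875 with a fixed and a random block, 8884 with array weights, 4719 with the background covariate, 604 among the brighter 50% of probe sets, and 772 to 2400 with pigs or arrays left out. Signal near background limits FCGR1A and 2 of the FCGR2B probe sets.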
